A study of Mus musculus with 27 samples.

Results

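A set of 5 genes by which blood monocytes are recognised was followed through the chromatin of liver macrophages: Cx3cr1, Ccr2, Ly6c2, Cd44 and Cd300e. Their members in the data were the 47 H3K27ac windows, of 70300 in all, that the deposited annotation assigns to one of the 5 genes, and the 240 sites, of 228956 on 6 lists of factor binding, that lie between the outermost windows of a gene or within 5000 bp of them. Windows and sites were assigned to the genes by name and position alone, while the 5 genes themselves were picked with earlier results of these data known. In all, 16038 genes had a window.

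The cells were Kupffer cells, macrophages that reside in the liver, taken from C57BL/6J mice by a sort for high F4/80 and for Tim4. The mice ate either a control diet or a NASH diet, which models non-alcoholic steatohepatitis, a fatty and inflamed liver. ChIP-seq, which sequences DNA bound by a protein or carrying a histone mark, was done for H3K27ac, an acetylation of active promoters and enhancers, in 2 libraries per diet, here called library 1 and 2. The nuclear receptor LXR, the stress-induced factor ATF3 and the acetyltransferase P300 were represented by 1 list of reproducible sites per diet, each drawn from 2 libraries. No genotype other than the strain is labelled for either group, and the age of the mice and the weeks on the diet are not given in the labels used here. The labels do not say whether the 2 libraries of a diet came from separate animals, so a p-value here reflects only how far these libraries differ, and that spread may be technical.

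Blood monocytes occur in a classical form, rich in Ly6C and the chemokine receptor CCR2, and a patrolling form, rich in the fractalkine receptor CX3CR1 and in CD300e. CD44, which binds hyaluronan, is carried by monocytes and by many other leukocytes. In an inflamed liver, monocytes that enter the tissue can become macrophages that resemble Kupffer cells, while mature Kupffer cells of a healthy liver carry little CX3CR1 or CCR2.

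Of the 5 genes, 2 have an H3K27ac window that covers part of the 250 bases upstream of a transcription start site (TSS) by more than its last base, and the upstream sequences of these 2 are printed here. They are shown 5′ to 3′ up to the base before the TSS, from RefSeq on GRCm38.p6, with the bases inside the window in capitals. The Cx3cr1 sequence is the minus strand of chr9:120068297-120068546, and the Cd300e sequence is the minus strand of chr11:115062040-115062289.
Cx3cr1: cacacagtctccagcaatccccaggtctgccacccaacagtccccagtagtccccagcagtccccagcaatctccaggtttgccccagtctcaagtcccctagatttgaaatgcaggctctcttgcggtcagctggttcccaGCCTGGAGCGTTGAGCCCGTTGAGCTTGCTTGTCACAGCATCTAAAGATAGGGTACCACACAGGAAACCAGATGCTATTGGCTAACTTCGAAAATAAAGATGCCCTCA
Cd300e: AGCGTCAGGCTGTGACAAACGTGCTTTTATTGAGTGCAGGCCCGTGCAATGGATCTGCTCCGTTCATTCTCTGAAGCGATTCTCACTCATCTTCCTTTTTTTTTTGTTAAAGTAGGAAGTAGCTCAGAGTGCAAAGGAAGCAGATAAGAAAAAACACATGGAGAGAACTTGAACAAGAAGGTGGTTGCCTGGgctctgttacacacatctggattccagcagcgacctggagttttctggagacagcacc
The window held the 108 bases next to the TSS of Cx3cr1, and the 192 bases farthest from the TSS of Cd300e. On both strands, 4 motifs were searched: the core of ETS factors such as PU.1 (GGAAGT), the AP-1 site (TGANTCA), the nuclear receptor half-site (AGGTCA) and the cAMP response element (TGACGTCA). Their letters occur in 19.8%, 6.73%, 14.0% and 1.55% of 32544 promoters of the same length. The Cx3cr1 sequence held none of the 4, and the Cd300e sequence held 1 ETS core, 136 bp upstream of the TSS and inside the window. A match is a description of the letters and not a measured site.

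H3K27ac is given in normalised tags, which the authors scaled to 10000000 tags per library on build mm10. In total there were 9468035 and 22615879 tags in control libraries 1 and 2, and 18749728 and 19231109 tags in NASH libraries 1 and 2, so that 3 tags, the most that a count of 0 allows, stand for 3.17, 1.33, 1.60 and 1.56 normalised tags. Intervals of this kind cover counting error only. The sort markers were read first: the windows of Timd4, which encodes Tim4, summed to 256.65 and 255.57 in control and 21.31 and 26.0 in NASH, and those of Adgre1, which encodes F4/80, to 253.5 and 252.91 against 148.29 and 121.16. Both fell (limma adjusted p = 6.72e-09 and 0.00078) and were among the 8 of 15 Kupffer cell markers called lowered (7 with TMM scaling, a scaling explained with the tests). Over all tested genes, 11.0% were called lowered (6.18% with TMM scaling). In bulk cells such as these, fewer cells of a type and less signal per cell cannot be told apart.

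Over all windows of a gene, H3K27ac per kb of window ran from high to low as Ly6c2, Cd300e, Cd44, Ccr2 and Cx3cr1 in both diets. In control it was 374 ± 9.27 at Ly6c2, 122 ± 2.88 at Cd300e, 59.3 ± 2.62 at Cd44, 56.0 ± 3.76 at Ccr2 and 9.78 ± 4.83 at Cx3cr1 (normalised tags per kb, mean ± SD, n = 2). Cd44 and Ccr2 did not differ beyond their spread in control. In NASH it was 476 ± 37.6, 66.6 ± 0.214, 53.8 ± 0.906, 38.9 ± 8.37 and 18.5 ± 4.27 in the same order. Ly6c2 stood at the 99.8th percentile of all genes in control and the 99.9th in NASH, and Cx3cr1 at the 24.4th and 42.7th.

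**Figure D1:**
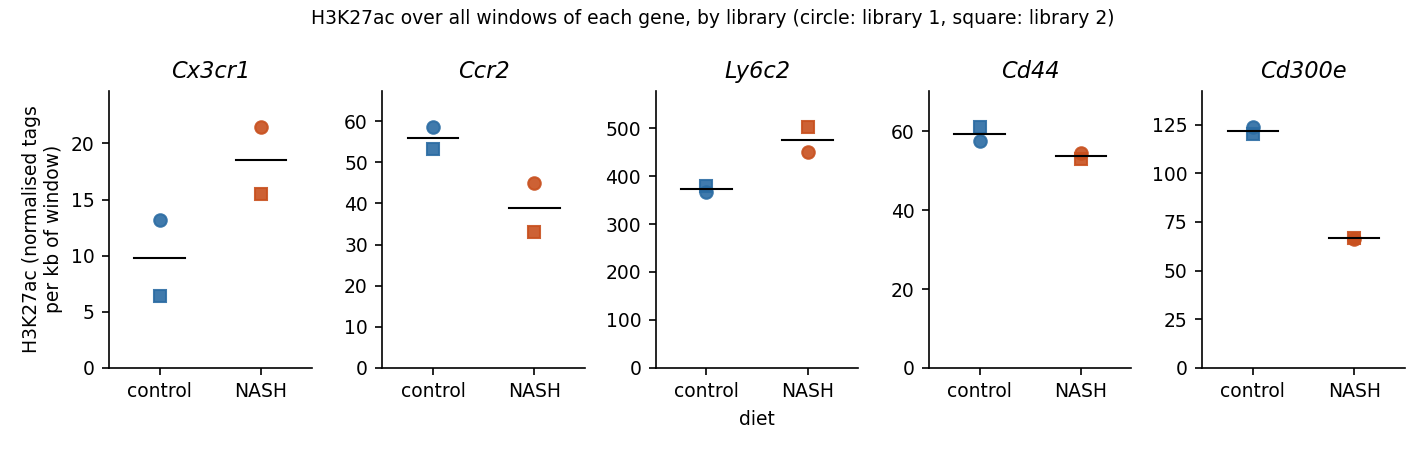
H3K27ac in normalised tags per kb of window (vertical axis, from 0, its own scale for each gene) in each library of the control and NASH diets, with a line at the mean of the 2 libraries. Both NASH libraries lie above both control libraries at Cx3cr1 and Ly6c2 and below them at Ccr2, Cd44 and Cd300e.

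Log2 changes below are NASH minus control. A value of 1 was added before taking the log2, so changes of low values are understated, and they are given relative to the median of all tested genes (−0.29) or windows (−0.26). Adjusted p-values are from limma with Benjamini-Hochberg adjustment over all 11593 genes or 35947 windows and test the change before that subtraction. TMM scaling, which centres the bulk of genes near 0, is given where it changes a call. A gene sum was called at an adjusted p under 0.05, and a window if its log2 change before that subtraction was also at least 1 in either direction. Of all gene sums, 2.89% were called raised and 11.0% lowered (7.06% and 6.18% with TMM scaling). Of the 5 genes, 0 were called raised and 1 lowered, and 2 raised and 1 lowered with TMM scaling.

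Cx3cr1 encodes the receptor for fractalkine, which holds patrolling monocytes to the vessel wall. Its 5 windows summed to 13.74 and 6.63 normalised tags in control and 22.41 and 16.12 in NASH. Both NASH libraries were above both control libraries, although NASH library 2 and control library 1 were close. The change was 1.20 (SE 0.44, limma adjusted p = 0.169) and was not called. With TMM scaling the adjusted p was 0.0469 and with edgeR's quasi-likelihood test 0.0291, but with DESeq2 it was 0.237 and without a filter on low values 0.34. Without control library 1, limma gave 0.034, and without each of the other 3 libraries 0.392 to 0.532.

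At the TSS of Cx3cr1, in the window centred 8 bp upstream (chromosome 9, 120068204 to 120068404), H3K27ac was 3.17 and 1.33 in control and 10.67 and 6.76 in NASH. These values stand for 3 and 3 tags against 20 and 13, so that both control libraries lay at what a count of 0 allows. The window was on the 20-week ATAC-seq list of the diet only. Its change was 1.87 (SE 0.57, limma adjusted p = 0.0964), which was not called. The adjusted p was 0.0566 with TMM scaling, 0.324 with DESeq2 and 0.0527 to 0.357 with a library left out, and edgeR alone called the window raised (0.0326). It was the only Cx3cr1 window with enough tags for the test. The window at 13289 bp, in the intron, had 3.17 and 1.77 in control and 4.8 and 5.72 in NASH, and the window at 18676 bp, in the 3′ UTR, had 1.06 and 0.88 against 4.27 and 2.08. The remaining windows were lower on average in NASH, with 3.17 and 2.21 against 2.67 and 0.52 at 9361 bp in the intron and 3.17 and 0.44 against 0.0 and 1.04 at −5056 bp. All 4 were at a few tags per library and were not tested. No site of any of the 3 factors lay in the TSS window. Upstream of it, an ATF3 site centred at −602 bp was on the control list only and a P300 site centred at −629 bp on the NASH list only.

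Ccr2 encodes the receptor through which CCL2 draws classical monocytes out of the marrow. Its 3 windows lay between genes, 21478 to 33603 bp upstream, and no window lay in the gene or within 1000 bp of its TSS. They summed to 36.96 and 33.61 in control and 28.26 and 20.8 in NASH, lower in both NASH libraries. The change was −0.24 (SE 0.32, limma adjusted p = 0.285) and was not called. The window at −21478 bp held 12.67 and 22.55 against 14.4 and 13, so the diets overlapped there. They also overlapped at −33603 bp, in a window on the diet ATAC-seq list only, with 15.84 and 7.96 against 11.73 and 5.72. That window held sites of LXR, ATF3 and P300 on the NASH lists only. Just outside it, an LXR site centred at −33858 bp in control had a match on the NASH list. Inside the gene span itself, LXR had 3 sites on the control list and 2 on the NASH list, and P300 had 0 and 1.

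Ly6c2 encodes Ly6C, the surface protein that divides classical from patrolling monocytes. Its 3 windows lay within 1464 bp of each other, 21206 bp beyond the end of the gene and between it and its near-identical neighbour Ly6c1, so assignment to Ly6c2 rests on distance and is uncertain. They summed to 242.92 and 251.6 in control and 297.6 and 332.8 in NASH, higher in both NASH libraries. The change was 0.63 (SE 0.14, limma adjusted p = 0.102) and was not called, but with TMM scaling the adjusted p was 0.0063, with edgeR 0.0045 and with DESeq2 0.0176. With a library left out, limma gave 0.137 to 0.493. The strongest window, at 25084 bp (chromosome 15, 75086751 to 75086955), held 140.47 and 132.65 against 156.27 and 197.6 and stood at the 99.9th percentile of all windows. The window at 25534 bp held 67.6 and 70.75 against 96.0 and 80.6. No single Ly6c2 window was called (limma adjusted p = 0.297, 0.378 and 0.575). Ly6c1 had 1 window, with 1.06 and 1.33 in control and 2.13 and 2.6 in NASH.

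Cd300e encodes an activating receptor of patrolling monocytes. Its 6 windows summed to 163.71 and 158.31 in control and 88.0 and 88.4 in NASH, with the diets far apart and the libraries of a diet close. H3K27ac fell by 0.58 on the log2 scale relative to the median (SE 0.18, limma adjusted p = 0.00328; 0.0239 with TMM scaling). The call was lost with DESeq2 (adjusted p = 0.118), without a filter on low values (limma adjusted p = 0.0996) and without NASH library 2 (0.0575).

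A single window held 63.9% of the Cd300e fall in normalised tags. It was centred 4495 bp upstream of the TSS (chromosome 11, 115066434 to 115066634), between genes in the deposited annotation but 42 bp inside the RefSeq span of Cd300e. That span, on the minus strand, reaches upstream to 115066676, past the TSS used here at 115062039. The window thus lay at the upstream end of the gene span, and whether a second start is used there was not tested. H3K27ac there was 78.16 and 60.58 in control and 22.93 and 22.88 in NASH. It fell by 1.29 (SE 0.27, limma adjusted p = 0.00245; 0.00724 with TMM scaling, 0.00353 with edgeR and 0.0266 with DESeq2). Without a filter on low values the call was lost (limma adjusted p = 0.237), as were those of all windows. It was the only window called among the 26 of 47 that could be tested, where 2.00% of all windows were called raised and 4.59% lowered (3.32% and 2.51% with TMM scaling). The window was on the control ATAC-seq list only. It held no site of LXR, ATF3 or P300 on either diet, whereas the next window, 150 bp away, held sites of all 3 on both diets and H3K27ac of 2.11 and 5.31 in control and 2.67 and 2.08 in NASH.

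The other Cd300e windows were not called or were too low to test. The window at −10154 bp held 39.08 and 65.0 in control and 43.2 and 47.32 in NASH, so the diets overlapped. The window at −9818 bp held 25.35 and 19.46 against 13.33 and 11.96 (−0.51, SE 0.36, limma adjusted p = 0.202). The TSS window printed above, centred at −159 bp and on the control ATAC-seq list only, held 8.45 and 4.42 in control and 1.60 and 1.56 in NASH, which is 3 tags in each NASH library, and was too low to test. LXR and P300 sites lay in it on both diets.

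**Figure D2:**
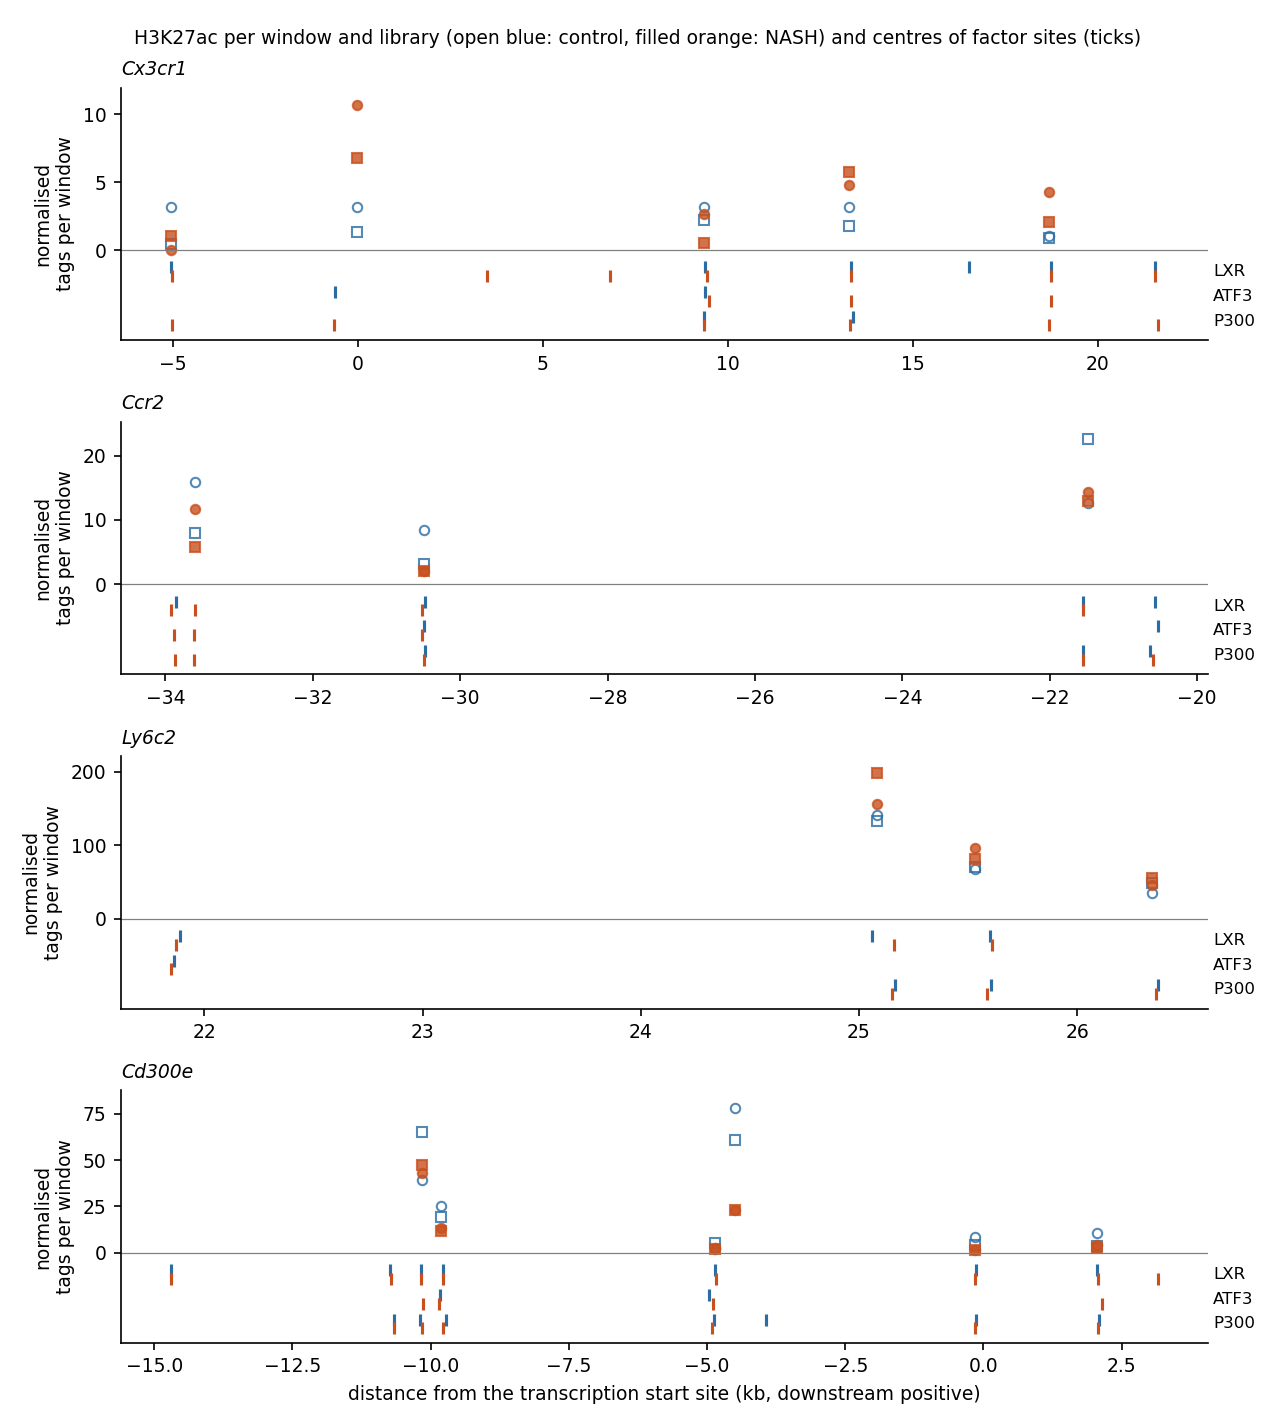
H3K27ac per window in normalised tags (vertical axis) against distance from the TSS in kb, with open blue markers for the control libraries, filled orange markers for the NASH libraries, circles for library 1 and squares for library 2. Ticks below 0 mark the centres of LXR, ATF3 and P300 sites in each diet's colour. The diets separate in Cd300e windows at −4495, −9818 and −159 bp and in Cx3cr1 windows at the TSS, 13289 and 18676 bp. They also separate in Ly6c2 windows at 25084 and 25534 bp and in the Ccr2 window at −30487 bp. Of these, only the Cd300e window at −4495 bp was called, and those of Cx3cr1 hold few tags.

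Cd44 encodes the hyaluronan receptor, by which leukocytes roll and adhere. It had the most windows, 30, of which 17 could be tested, and these summed with the rest to 360.13 and 383.34 in control and 340.83 and 332.8 in NASH. The change was 0.14 relative to the median (SE 0.13, limma adjusted p = 0.485). Single tested windows ran from −0.76 to 1.13, with 9 above and 8 below the median, and the lowest limma adjusted p was 0.117. That window, at −75710 bp, held 38.02 and 43.33 against 25.07 and 22.36. The strongest, at −41046 bp (chromosome 2, 102942598 to 102942824), held 88.72 and 109.66 in control and 106.67 and 80.6 in NASH, overlapping, and stood at the 99.3rd percentile of all windows. The window nearest the TSS, at 105 bp in the 5′ UTR, held 29.57 and 18.57 in control and 19.73 and 15.6 in NASH, also overlapping. Its change was −0.14 (SE 0.35, limma adjusted p = 0.522). LXR and P300 sites lay in it on both diets, and an ATF3 site on the NASH list only.

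**Figure D3:**
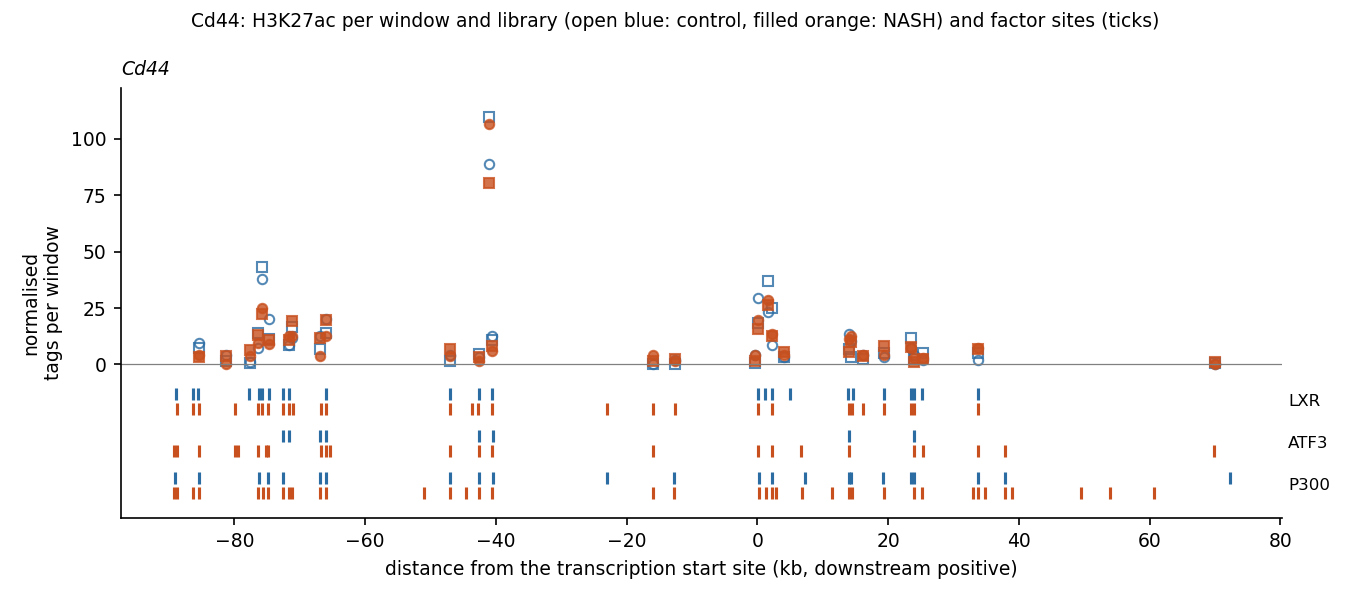
The 30 Cd44 windows, with H3K27ac in normalised tags (vertical axis) against distance from the TSS in kb, markers and ticks as in the plot of the other 4 genes. The highest window, at −41046 bp, has overlapping diets and no factor site, but the window beside it, at −40624 bp, holds sites of LXR, ATF3 and P300 on both diets. ATF3 ticks are more frequent in the NASH colour.

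Binding sites were compared by list, 1 per factor and diet, so they have no replicate check and no test. The NASH lists were longer throughout, 51709 against 44463 sites for LXR (1.16 times), 38828 against 16109 for ATF3 (2.41 times) and 52628 against 25219 for P300 (2.09 times). At the 5 loci, LXR had 44 sites on the control list and 50 on the NASH list, ATF3 15 and 35, and P300 38 and 58. Of the LXR sites at the loci, 86.4% on the control list and 76.0% on the NASH list had a match on the other list, against 82.2% and 70.7% over the whole lists. For ATF3 the shares were 73.3% and 31.4%, against 82.6% and 34.3%, and for P300 86.8% and 56.9%, against 89.9% and 43.3%.

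Cd44, the longest locus at 165.6 kb against 11.5 to 33.9 kb for the others, held 18 of the 24 ATF3 sites on the NASH list only and 19 of the 25 P300 sites (75.0% and 76.0%). It also held 68.6% and 65.5% of all NASH-list sites of these factors at the 5 loci. At Ly6c2 every site had a match on the other diet's list: 3 LXR sites, 1 ATF3 site and 3 P300 sites. The Ly6c2 sites ranged widely within their lists. By the authors' enrichment score, the LXR site in the window at 25084 bp stood at the 99.6th percentile of both lists, and the P300 site there at the 99.9th in control and the 99.8th in NASH. The LXR site outside the windows, centred at 21890 bp in control, stood at the 3.0th and 34.5th, and the P300 site in the window at 26345 bp at the 99.6th and 79.2nd. The ATF3 site had IDR scores of 547 and 560, where the lowest on any list was 540. The LXR site in the Cd300e intron, at 2058 bp, stood at the 99.6th and 99.5th. H3K27ac within that window was 10.56 and 3.54 in control and 4.27 and 2.6 in NASH.

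**Figure D4:**
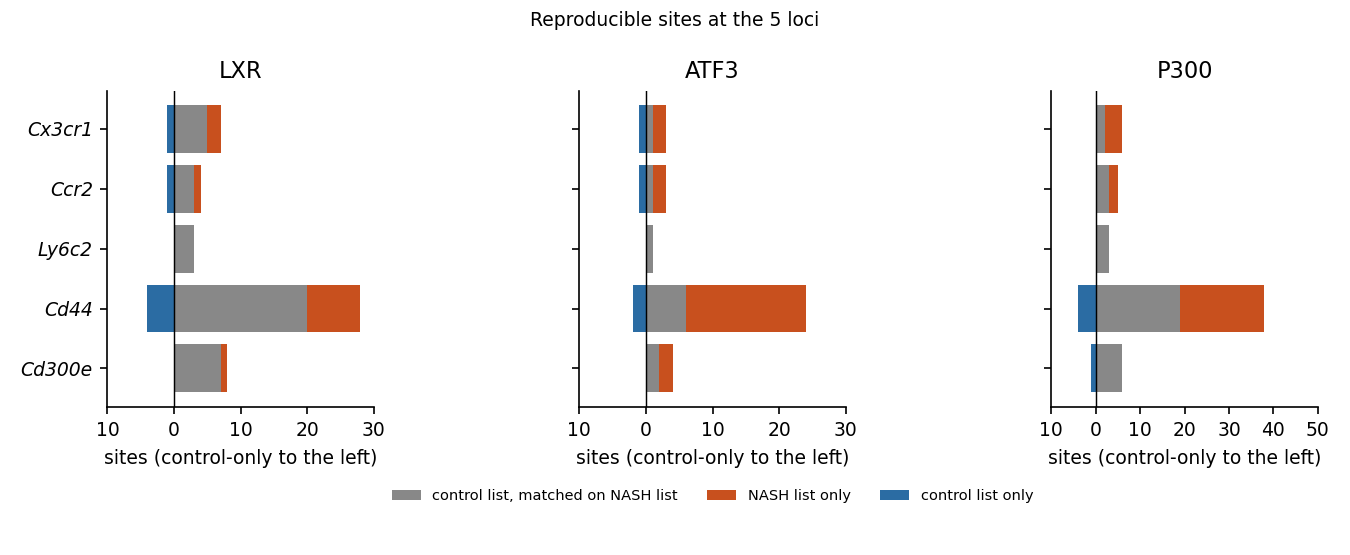
Sites of LXR, ATF3 and P300 at each locus (horizontal axis, number of sites): grey for control-list sites matched on the NASH list, orange for sites on the NASH list only, and blue, to the left of 0, for sites on the control list only. Cd44 has 18 ATF3 and 19 P300 sites on the NASH list only, and Ly6c2 has none.

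Counted by window, 6 of the 47 windows had an LXR site on the NASH list only and 2 on the control list only, against 12.5% and 7.53% of all windows. For ATF3 these were 15 and 1, against 24.2% and 3.58%, and for P300 10 and 1, against 29.1% and 2.49%. No site of any factor lay in 6 of the 47 windows, against 24.3% of all windows. These 6, noticed after their values were seen, included the lowered Cd300e window, the Cx3cr1 TSS window and the strongest Cd44 window. The rest were Cd44 windows at −81300, −375 and 4060 bp, all too low to test. Beside the strongest Cd44 window, the one at −40624 bp held sites of LXR, ATF3 and P300 on both diets, so a window without a site can lie next to bound ones.

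Other genes of the 2 monocyte forms did not move one way. Over all tested genes the shares were 2.89% raised and 11.0% lowered (7.06% and 6.18% with TMM scaling). Of 13 tested genes of classical monocytes, 0 were called raised and 3 lowered (1, Ccr1, and 2 with TMM scaling). Plac8 went from 301.02 and 192.79 to 122.67 and 98.28 (limma adjusted p = 0.000666; 0.0523 without NASH library 2), Ifitm6, an interferon-induced membrane protein, from 84.49 and 62.34 to 22.93 and 26.52 (0.000989), and Lyz2, which encodes lysozyme, from 57.03 and 46.87 to 27.2 and 26.52 (0.036; 0.097 with TMM scaling and up to 0.249 without control library 1 or either NASH library). Of 12 tested genes of patrolling monocytes, 2 were raised and 2 lowered. The nuclear receptor gene Nr4a1, needed for patrolling monocytes, fell from 276.72 and 218.87 to 114.66 and 108.16 (limma adjusted p = 0.000148), as did Klf2 from 336.92 and 312.16 to 168.0 and 182.52 (0.000363). Cd36, a lipid scavenger receptor, rose from 88.73 and 86.22 to 147.2 and 120.64 (0.0435), and Cebpb from 83.45 and 57.93 to 110.39 and 110.76 (0.0492). The call of Cd36 was lost without any 1 of the 4 libraries and that of Cebpb without control library 2 or either NASH library, with limma adjusted p up to 0.292 and 0.309.

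Of 12 tested ligands and related receptors of the 5 genes, 1 was raised and 1 lowered (5 and 1 with TMM scaling, the raised including Spp1, Ccrl2, Cd74 and Mif). For these and the 2 families below, the shares over all tested genes were 2.89% raised and 11.0% lowered (7.06% and 6.18% with TMM scaling). Spp1, which encodes osteopontin, a ligand of CD44, rose from 1.06 and 1.77 to 24.0 and 15.08 (limma adjusted p = 0.000517). Ccl7, a ligand of CCR2, fell from 34.85 and 39.79 to 14.4 and 9.36 (0.00521; 0.149 without NASH library 2). Ccl2, the main ligand of CCR2, held 130.96 and 118.51 against 129.06 and 96.2 (0.621), and Cx3cl1, which encodes fractalkine, 13.73 and 10.61 against 5.87 and 7.8 (0.292). Of 7 tested genes of the CD300 family besides Cd300e, 0 were called in either direction by limma, with or without TMM scaling. Cd300a, an inhibitory member, held 324.25 and 363.9 against 370.14 and 317.72, the highest change of the 7 at 0.28 relative to the median. The lowest was −0.45 at Cd300lf, with 30.63 and 23.43 against 14.4 and 17.16 (limma adjusted p = 0.18). Of 2 tested Ly6 genes, Ly6e fell from 491.15 and 504.5 to 361.06 and 339.04 (limma adjusted p = 0.00751; 0.353 with TMM scaling and 0.0955 without NASH library 2).

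**Figure D5:**
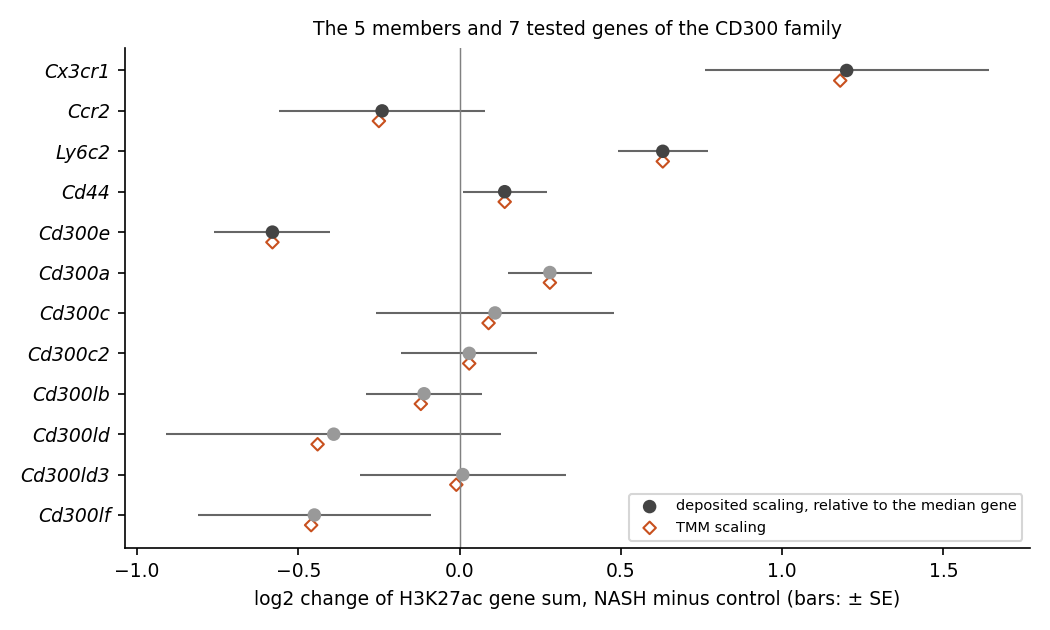
Log2 change of the gene sum, NASH minus control (horizontal axis), for the 5 genes (dark) and 7 genes of the CD300 family (grey), as circles relative to the median gene with bars of ± SE, and as diamonds with TMM scaling. Cd300e lies at −0.58, and the genes of the CD300 family lie between −0.45 (Cd300lf) and 0.28 (Cd300a).

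Markers of other cells were counted in the same way, against 2.89% of all tested genes raised and 11.0% lowered (7.06% and 6.18% with TMM scaling). Of neutrophil markers, 0 of 3 tested were raised and 2, Csf3r and Elane, lowered (1, Ltf, and 0 with TMM scaling; limma adjusted p up to 0.255 and 0.202 for the lowered genes with a library left out), with S100a8 and S100a9 at 2.67 or less in every library and the list summing to 138 and 148 in control and 109 and 96.7 in NASH. T cell markers had 1 of 3 raised, Cd3d, from 3.17 and 3.54 to 12.27 and 21.84 (limma adjusted p = 0.00948; 0.238 without NASH library 2). The lists of NK cells (0 raised, 1 lowered of 2, Klrk1), B cells (0 and 1 of 2, Blk) and dendritic cells (0 and 2 of 4, Zbtb46 and Batf3) gave 0 raised genes, and with TMM scaling Blk was the only one of these called lowered. The dendritic cell list summed to 699 and 704 in control and 506 and 414 in NASH, and the B cell list to 107 and 105 against 36.3 and 28.1. With a library left out, the limma adjusted p rose to 0.182 for Klrk1, 0.246 for Zbtb46 and 0.0699 for Batf3, and stayed at 0.00251 or less for Blk. Endothelial markers had 2 of 3 lowered, Cdh5 and Stab2 (limma adjusted p up to 0.116 and 0.302 with a library left out), stellate cell markers 0 of 1 called, hepatocyte markers 0 of 2 (1 raised with TMM scaling, Apoa1), and cholangiocyte markers 1 of 2 raised, which was Spp1. Their part in the values of the 5 genes was not tested.

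By distance between the log2 profiles over the 4 libraries among 11592 genes, the genes most like each member were Chst14 and Shc1 for Cx3cr1 (0.067 and 0.072), Rnpep and Specc1l for Ccr2 (0.031 and 0.035), Ctps2 and Vamp1 for Ly6c2 (0.042 and 0.049), Slc36a4 and Irgm1 for Cd44 (0.029 and 0.032), and Mir146 and Plcxd1 for Cd300e (0.021 and 0.036). Mir146, a microRNA locus, held 367.56 and 352.84 in control and 194.13 and 196.56 in NASH.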

How the data were processed

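The authors deposited H3K27ac as a HOMER signal on mm10: the tags in each window, normalised so that every library totals 10000000, per the file headers. Windows are ATAC-seq peaks merged from a control list and a list for 20 weeks of diet, per the same headers. The submitters' processing notes name Bowtie2, HOMER and DESeq2 without versions. For LXR, ATF3 and P300 the authors deposited 1 list per diet carrying a score for reproducibility (IDR) and, except for ATF3, a score for enrichment, per the file headers. The IDR threshold was 0.05 for LXR and P300 and is not given for ATF3 in the sources used here. The unnamed ATF3 score was taken to be IDR because of its position. In the NASH diet, LXR and P300 headers are named differently from the ATAC-seq list, so the time on the diet may differ. Scores were used only within a list.

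Multiplying each value by its library total gave whole tags within 0.02 for 100% of values. The main test was limma 3.58.1 on log2(value + 1), trend on, for windows and gene sums kept by filterByExpr of edgeR 4.0.16 on these tags. Alternatives were TMM scaling, edgeR's quasi-likelihood test, DESeq2 1.42.0, a pseudocount of 4, no filter, a replicate block, windows within 20000 bp of the TSS and each library left out. Sites sharing 1 bp or more counted as matched. In data simulated for the window comparison (35947 windows, 200 changed), 21% of 2-fold and 86% of 4-fold changes were called, and 0.014% of unchanged windows. The changed windows were drawn only from those with higher tag counts, so these shares do not hold for low windows such as those of Cx3cr1. The simulation also gave all windows a common spread and had no shift between the diets, whereas the median window changed by −0.26 in the data. The share of 0.014% may therefore not hold for the data. Replicates differed by more than sampling noise (chi-square per degree of freedom 2.14 in control and 1.78 in NASH over windows).

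Named windows were those called, the 2 with the highest mean per gene and the one nearest the TSS; named list genes were those called, up to 3 per direction. Other windows of Cx3cr1 and Cd300e and other list genes were named after their values were seen. The lists covered classical and patrolling monocyte genes, ligands and related receptors, the CD300 and Ly6 families, and markers of Kupffer cells, neutrophils, T, NK, B, dendritic, endothelial, stellate and hepatic parenchymal cells and cholangiocytes. The 5 genes and the lists were chosen with earlier results of these data known. The 10 input samples and the 1 peritoneal macrophage library were not analysed here. Values of 1 list gene are not reported here.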

Additional observations from a re-analysis of the deposited data

How the results depend on the processing

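Against 720 raised and 1651 lowered windows and 335 raised and 1278 lowered genes by limma, TMM scaling gave 1193, 902, 819 and 717. The edgeR test gave 1357 raised windows, 838 raised and 747 lowered genes, and DESeq2 428 raised and 206 lowered windows and 289 lowered genes. Without a filter limma called 0 windows and 0 genes in either direction, with 10809 windows and 3303 genes at an unadjusted p under 0.05. Leaving out 1 library at a time gave 200 to 953 raised and 466 to 2501 lowered windows, and 98 to 395 raised and 259 to 1967 lowered genes; the lone library of a diet is then assumed to vary like the others. Libraries with the same number did not deviate together (correlation 0.0399 over windows and 0.0322 over genes), and the replicate block gave 2837 lowered windows and 2263 lowered genes and changed no call of the 5 genes. Of the 5 gene sums, 0 were raised by limma, 2 with TMM scaling, 2 with edgeR, 1 with DESeq2 and 0 to 1 with a library left out; 1 was lowered, and 0 with DESeq2, 0 without a filter and 0 to 1 with a library left out. Of their windows, edgeR called 1 raised, and without a filter 0 were lowered. Cx3cr1 was 1.19 with TMM scaling, 1.33 with edgeR and 0.84 to 1.58 with a library left out, Ly6c2 0.64 with TMM scaling, edgeR and DESeq2, and Cd300e −0.57 with DESeq2, −0.60 without a filter and −0.67 to −0.49 with a library left out. Uncalled windows changed sign with a library left out: Ccr2 at −33603 bp (−0.56 to 0.24, and 0.22 without NASH library 2) and −21478 bp (−0.48 to 0.44), Cd300e at −10154 bp (−0.32 to 0.54, and −0.05 without NASH library 2), and Cd44 at −41046 bp (−0.04 to 0.40) and 105 bp (−0.38 to 0.12). Counting sites in the RefSeq gene span plus 5000 bp, a choice made after seeing the data, gave 28 and 28 for LXR, 7 and 19 for ATF3 and 22 and 38 for P300; ATF3 had 23 control sites with a flank of 20000 bp, and P300 23 at an IDR of 0.01. The causes were not tested. Windows within 20000 bp of the TSS gave no value for Ccr2 and Ly6c2. Depth limits Cx3cr1 most, where 4 of 5 windows were too low to test.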
